A study of Rattus norvegicus with 24 samples.

Results

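The genes described here are 10 genes of the rat nucleus accumbens (NAc), Enc1, Ankrd33b, Atrnl1, Exph5, Zfp238, Etnk2, Tppp3, Nnat, Vat1 and Ifitm10, of 32545 genes in the deposited expression table. They were chosen by their measured change: each passed the thresholds on size and unadjusted p in all 3 injection comparisons with the shared saline group, or stood in the study's list of genes common to its comparisons. The choice therefore used the LPS-Saline, Saline-Heroin and LPS-Heroin comparisons with Saline-Saline for all 10 genes, and for Enc1, Ankrd33b, Atrnl1, Exph5, Etnk2 and Tppp3 it used the self-administration comparison too. Values from those comparisons are given as a description, with no test.

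RNA from the NAc, core and shell together, of adult male Sprague Dawley rats was sequenced in 6 groups of 4 libraries, 1 rat in each library. In the injection experiment, rats received 5 intraperitoneal injections of saline or of 250 µg/kg lipopolysaccharide (LPS), and later 5 daily injections of saline or of heroin raised from 1 to 5 mg/kg, which gave 4 groups named by both treatments: LPS-Heroin, LPS-Saline, Saline-Heroin and Saline-Saline. In the second experiment, rats with an intravenous catheter took saline (Saline-SA) or heroin at 0.075 mg/kg per infusion (Heroin-SA) in 10 daily sessions of 6 h, with no LPS. Tissue of the injection experiment was taken soon after the last injection and a test of locomotion. All 3 injection comparisons rest on the same 4 Saline-Saline libraries, whereas Heroin-SA was compared with Saline-SA, which shares no library with them.

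LPS is a bacterial endotoxin that starts an innate immune response through Toll-like receptor 4. Heroin acts, largely through its metabolites, on the µ-opioid receptor. The NAc is the ventral part of the striatum, most of its neurons are GABAergic medium spiny neurons, and it is a main site at which opioids act on reward. The 10 genes belong to no single pathway: they include an adaptor of a ubiquitin ligase, a transcriptional repressor, a lipid kinase, a tubulin-binding protein, vesicle proteins and an imprinted gene.

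The tissue carried striatal markers throughout. Ppp1r1b, which encodes the medium spiny neuron phosphoprotein DARPP-32, lay between 488 and 1452 FPKM (reads scaled to gene length and library depth) over the 24 libraries, and Drd2, the D2 dopamine receptor, between 24.6 and 91.9 FPKM. Library depth was 12312878 to 18850240 reads on genes, so that the least abundant of the 10, Exph5, rested on 28 to 208 reads per library and the most abundant, Enc1 and Nnat, on 4559 to 18798. The treated libraries LPS-Saline replicate 3 and Saline-Heroin replicate 2 lay inside the Saline-Saline range for 7 of the 10 genes each, the other treated injection libraries lay beyond it for 8 to 10 genes, and Saline-Saline replicate 1 lay farthest from the treated libraries for 8 genes. Member counts without these libraries are given further on. Bulk RNA cannot tell fewer cells of a type apart from less RNA per cell.

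Promoter sequence was at hand for 7 of the 10 genes, from RefSeq on the GRCr8 assembly, each window running from 250 bases before to 50 bases after a transcript start. Zfp238 is listed there as Zbtb18. The windows of 3 genes are shown because these genes stand for both directions of change and for the motif that the product of Zfp238 is known to bind. Capitals mark matches, on either strand, to the Zbtb18 core ACATCTG, the CRE core TGACG, the AP-1 motif TGANTCA and the GC box GGGCGG, and neighbouring matches can overlap. The windows are chr13:91971352-91971651, plus strand, for Zfp238, chr10:86897362-86897661, minus strand, for Vat1, and chr2:84069530-84069829, minus strand, for Ankrd33b.
Zfp238: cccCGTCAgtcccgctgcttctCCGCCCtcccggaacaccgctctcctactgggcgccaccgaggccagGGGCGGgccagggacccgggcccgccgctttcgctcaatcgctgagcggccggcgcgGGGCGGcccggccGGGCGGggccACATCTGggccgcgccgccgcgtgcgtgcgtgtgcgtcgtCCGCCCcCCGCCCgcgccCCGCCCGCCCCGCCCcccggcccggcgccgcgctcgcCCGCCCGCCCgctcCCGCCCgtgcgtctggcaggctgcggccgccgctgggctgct
Vat1: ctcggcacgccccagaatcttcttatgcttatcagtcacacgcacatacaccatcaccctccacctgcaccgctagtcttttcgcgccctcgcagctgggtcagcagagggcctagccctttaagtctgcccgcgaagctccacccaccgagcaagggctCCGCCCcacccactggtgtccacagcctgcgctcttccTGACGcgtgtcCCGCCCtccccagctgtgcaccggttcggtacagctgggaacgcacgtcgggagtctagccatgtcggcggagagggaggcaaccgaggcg
Ankrd33b: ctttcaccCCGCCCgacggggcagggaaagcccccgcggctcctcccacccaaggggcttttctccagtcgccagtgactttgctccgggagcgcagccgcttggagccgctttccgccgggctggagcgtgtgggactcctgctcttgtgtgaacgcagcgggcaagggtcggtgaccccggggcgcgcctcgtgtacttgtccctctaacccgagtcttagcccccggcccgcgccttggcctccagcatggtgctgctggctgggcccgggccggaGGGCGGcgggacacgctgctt

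The Zbtb18 core was found in 1 of the 11 member windows, the first of 2 for Zfp238 itself, and in 4.25% of 33469 promoters of the same length. A GC box was found in 7 member windows, 1 for each of the 7 genes, against 33.1% of all promoters, and the Zfp238 window above held 12 matches. The CRE core occurred in 1 window each of Zfp238, Etnk2 and Vat1, against 21.2% of all promoters, and the AP-1 motif in 1 window of Ifitm10, against 7.33%. The RefSeq window of Etnk2 is on the plus strand, while the deposited rn6 gene is on the minus strand, and whether it belongs to the measured gene was not tested. These matches are a description of the letters only.

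Higher in the treated groups were 5 genes. Enc1 (ectodermal-neural cortex 1; ENSRNOG00000016541, rn6 chr2:28049217-28061029, plus strand) encodes a BTB-kelch protein that binds actin and serves as an adaptor of Cullin-3 ubiquitin ligases. Its level in Saline-Saline was 118, 143, 129 and 161 FPKM (mean 138 ± 18.6, SD, n = 4). In LPS-Saline it was 216, 193, 146 and 224 FPKM, in Saline-Heroin 222, 146, 225 and 171 FPKM, and in LPS-Heroin 245, 222, 184 and 219 FPKM. All 4 LPS-Heroin libraries were above all Saline-Saline libraries, whereas LPS-Saline replicate 3 and Saline-Heroin replicate 2, both at 146 FPKM, fell inside the saline range. The log2 fold change (on FPKM + 0.1, as are all below) was 0.49 ± 0.15 (SE) after LPS, 0.46 ± 0.15 after heroin and 0.66 ± 0.11 after both. In self-administration, Enc1 was at 158, 146, 100.5 and 91.5 FPKM in Saline-SA and at 181, 173, 184 and 147 FPKM in Heroin-SA, a log2 difference of 0.50 ± 0.18 with overlap of 1 Heroin-SA library.

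Ankrd33b (ENSRNOG00000010888, rn6 chr2:84361061-84437084, minus strand) encodes an ankyrin-repeat protein. It was the member with the clearest separation, at 2.78, 5.01, 4.91 and 4.76 FPKM in Saline-Saline against 7.71, 6.23, 7.29 and 8.22 FPKM in LPS-Saline. Saline-Heroin libraries held 8.20, 6.31, 7.64 and 7.35 FPKM, and LPS-Heroin libraries 8.35, 10.0, 5.71 and 8.51 FPKM. No treated library overlapped Saline-Saline, and the 3 log2 fold changes were 0.77 ± 0.19, 0.77 ± 0.19 and 0.89 ± 0.23. Saline-Saline replicate 1, at 2.78 FPKM, was well under the other 3, and without it the same fold changes were 0.57, 0.58 and 0.70. Saline-SA (4.62, 4.51, 3.79 and 3.42 FPKM) and Heroin-SA (4.99, 6.33, 4.82 and 5.69 FPKM) were likewise separate, by 0.41 ± 0.14.

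Atrnl1 (ENSRNOG00000017406, rn6 chr1:278557792-278815473, plus strand) encodes attractin-like 1, a transmembrane protein that binds the melanocortin-4 receptor. Saline-Saline libraries held 7.42, 8.02, 8.16 and 9.69 FPKM, those of LPS-Saline 11.9, 10.2, 9.00 and 12.4 FPKM, those of Saline-Heroin 11.8, 8.04, 11.3 and 12.9 FPKM, and those of LPS-Heroin 13.4, 12.7, 12.2 and 10.8 FPKM. The log2 fold changes were 0.38 ± 0.13, 0.38 ± 0.15 and 0.56 ± 0.10, and again only LPS-Heroin was free of overlap. Atrnl1 had the widest gap of the 10 genes in the second experiment, 4.91, 4.48, 3.11 and 3.66 FPKM in Saline-SA against 6.80, 7.72, 5.53 and 7.24 FPKM in Heroin-SA (0.75 ± 0.17, no overlap). Of these 8 libraries only Heroin-SA replicate 2 exceeded the lowest Saline-Saline library.

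Exph5 (ENSRNOG00000025115, rn6 chr8:57886168-57962708, plus strand) encodes exophilin 5, an effector of the vesicle GTPase Rab27. It was near the detection limit of the analysis, with 0.321, 0.586, 0.674 and 0.619 FPKM in Saline-Saline. LPS-Saline libraries held 1.07, 1.03, 0.466 and 1.24 FPKM, Saline-Heroin libraries 1.38, 0.700, 1.09 and 0.956 FPKM, and LPS-Heroin libraries 1.07, 1.15, 0.922 and 0.879 FPKM. Saline-Heroin and LPS-Heroin did not overlap Saline-Saline (0.80 ± 0.33 and 0.79 ± 0.30), whereas LPS-Saline did through replicate 3 (0.66 ± 0.38). In self-administration its mean over both groups was under the 0.5 FPKM needed for the test, at 0.214, 0.514, 0.216 and 0.379 FPKM in Saline-SA and 0.467, 0.583, 0.771 and 0.513 FPKM in Heroin-SA. Without that filter the log2 difference was 0.71, and the groups overlapped.

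Zfp238 (ENSRNOG00000004423, rn6 chr13:95589668-95591236, plus strand), also named Zbtb18 or RP58, encodes a zinc finger repressor of transcription that cortical neurons need to mature. Its level was 22.3, 26.2, 24.8 and 27.4 FPKM in Saline-Saline and 37.1, 35.0, 28.3 and 32.3 FPKM in LPS-Saline, with no overlap (0.39 ± 0.10). Saline-Heroin was the most scattered group, at 44.7, 22.9, 40.1 and 31.7 FPKM (0.43 ± 0.19), and replicate 2 there was below 3 of the 4 saline libraries. LPS-Heroin libraries, at 42.7, 32.7, 40.6 and 34.8 FPKM, were all above Saline-Saline (0.58 ± 0.10).

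**Figure D1:**
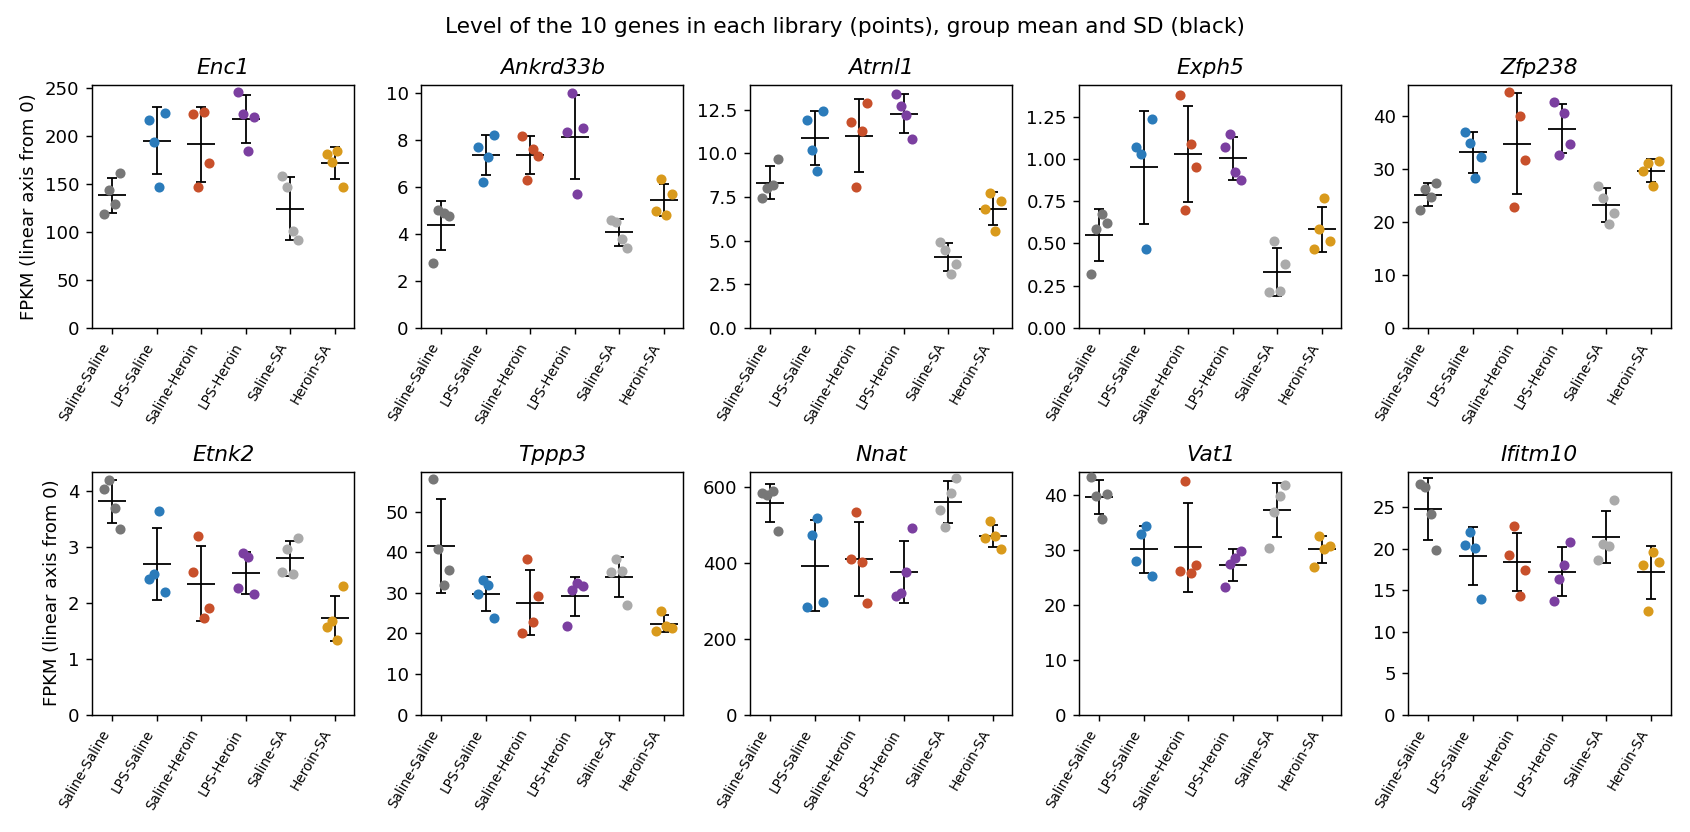
FPKM of each of the 10 genes (vertical axis, linear, from 0) in the 6 groups (horizontal axis); each point is 1 library, the long dash is the group mean and the bar its SD (n = 4). The upper row holds the 5 genes that were higher in treated groups and the lower row the 5 that were lower; Ankrd33b is the only gene of the 10 whose 3 injected treatment groups all lie clear of Saline-Saline.

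Lower in the treated groups were the other 5 genes. Etnk2 (ENSRNOG00000028368, rn6 chr13:50481163-50499140, minus strand) encodes ethanolamine kinase 2, which phosphorylates ethanolamine at the start of phosphatidylethanolamine synthesis. Saline-Saline libraries were at 4.04, 4.19, 3.69 and 3.32 FPKM, LPS-Saline at 2.42, 2.52, 3.64 and 2.20 FPKM, Saline-Heroin at 2.54, 3.20, 1.73 and 1.90 FPKM and LPS-Heroin at 2.27, 2.89, 2.82 and 2.16 FPKM. The log2 fold changes were -0.51 ± 0.17, -0.71 ± 0.20 and -0.57 ± 0.15, and only LPS-Saline replicate 3 overlapped the saline range. Heroin-SA (1.57, 1.67, 1.34 and 2.29 FPKM) lay wholly under Saline-SA (2.55, 2.96, 2.51 and 3.15 FPKM), by -0.69 ± 0.19.

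Tppp3 (ENSRNOG00000016890, rn6 chr19:37424324-37427989, minus strand) encodes a member of the tubulin polymerization promoting protein family. Saline-Saline libraries were spread from 31.9 to 57.9 FPKM, with replicate 1 highest at 57.9 and the others at 40.7, 31.9 and 35.6 FPKM. LPS-Saline held 29.6, 33.2, 32.0 and 23.7 FPKM, Saline-Heroin 20.2, 38.2, 22.7 and 29.2 FPKM, and LPS-Heroin 21.9, 30.6, 32.4 and 31.6 FPKM, so that each treated group overlapped Saline-Saline. The log2 fold changes of -0.46 ± 0.18, -0.59 ± 0.23 and -0.49 ± 0.19 became -0.29, -0.42 and -0.32 without Saline-Saline replicate 1. In self-administration, where that library plays no part, Saline-SA was at 35.0, 38.4, 35.4 and 27.0 FPKM and Heroin-SA at 20.7, 25.4, 21.9 and 21.4 FPKM, with no overlap (-0.59 ± 0.12). Tppp3 lies inside Lrrc36, a gene on the opposite strand with a mean of 0.645 FPKM.

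Nnat (ENSRNOG00000024923, rn6 chr3:154043873-154046330, plus strand) encodes neuronatin, a small membrane protein of the endoplasmic reticulum made from the paternal allele. It was the most abundant of the 10, at 585, 579.8, 589.9 and 485 FPKM in Saline-Saline. LPS-Heroin libraries held 313, 322, 377 and 493 FPKM, LPS-Saline libraries 283, 473, 518 and 298 FPKM and Saline-Heroin libraries 410.0, 536, 404 and 295 FPKM. A single library of each treated group overlapped the saline range, and the log2 fold changes were -0.56 ± 0.20 after LPS, -0.47 ± 0.16 after heroin and -0.59 ± 0.14 after both. A microRNA gene on the opposite strand overlaps the end of Nnat, with a mean of 20.3 FPKM; whether the counting used strand is not given in the sources used here.

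Vat1 (ENSRNOG00000020684, rn6 chr10:89366899-89374516, minus strand) encodes vesicle amine transport protein 1, first found in the membrane of synaptic vesicles. Its level was 43.2, 39.8, 35.6 and 40.1 FPKM in Saline-Saline against 27.9, 32.9, 34.4 and 25.2 FPKM in LPS-Saline (-0.41 ± 0.11, no overlap) and 23.2, 27.5, 28.5 and 29.8 FPKM in LPS-Heroin (-0.54 ± 0.09, no overlap). In Saline-Heroin 3 libraries were at 26.2, 25.8 and 27.2 FPKM, under every saline library, and replicate 2 was at 42.6 FPKM, near the top of the saline range (-0.41 ± 0.16 over all 4).

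Ifitm10 (ENSRNOG00000020164, rn6 chr1:215515764-215536980, minus strand) belongs to the interferon-induced transmembrane protein family. Saline-Saline held 27.8, 27.4, 24.2 and 19.8 FPKM and LPS-Saline 20.5, 22.0, 20.1 and 14.0 FPKM. Saline-Heroin held 19.2, 22.7, 14.3 and 17.5 FPKM and LPS-Heroin 13.7, 16.4, 18.0 and 20.8 FPKM. All 3 treated groups overlapped Saline-Saline through its replicate 4, and the log2 fold changes were -0.38 ± 0.16, -0.43 ± 0.15 and -0.53 ± 0.15. The first of these was -0.24 without LPS-Saline replicate 4.

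By the thresholds of the choice (unadjusted p at most 0.05 in limma and a change of at least about 1.3-fold), 9 of the 10 genes were called after LPS, where 2.37% of 15119 genes tested were called. All 10 were called after heroin (3.07% of 15143 genes) and all 10 after both (5.43% of 15134 genes). In all 3 comparisons 9 were called, 4 higher and 5 lower, against 0.337% of the 14852 genes tested in all 3, and 41 further genes met the same rule. These shares follow from how the genes were chosen, and nothing is read from them. Exph5 lay outside the rule, since its change of 0.66 after LPS did not reach the limit on p, and Atrnl1 (0.38) and Ifitm10 (-0.38) after LPS lay just inside the limit on size. Groups did not overlap for 3 members after LPS (4.11% of all genes), for 3 after heroin (3.39%) and for 7 after both (6.86%). None of the 10, and no other gene, reached an adjusted p under 0.05 in limma in these 3 comparisons, where 1002, 995 and 1704 genes had an unadjusted p under 0.05.

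**Figure D2:**
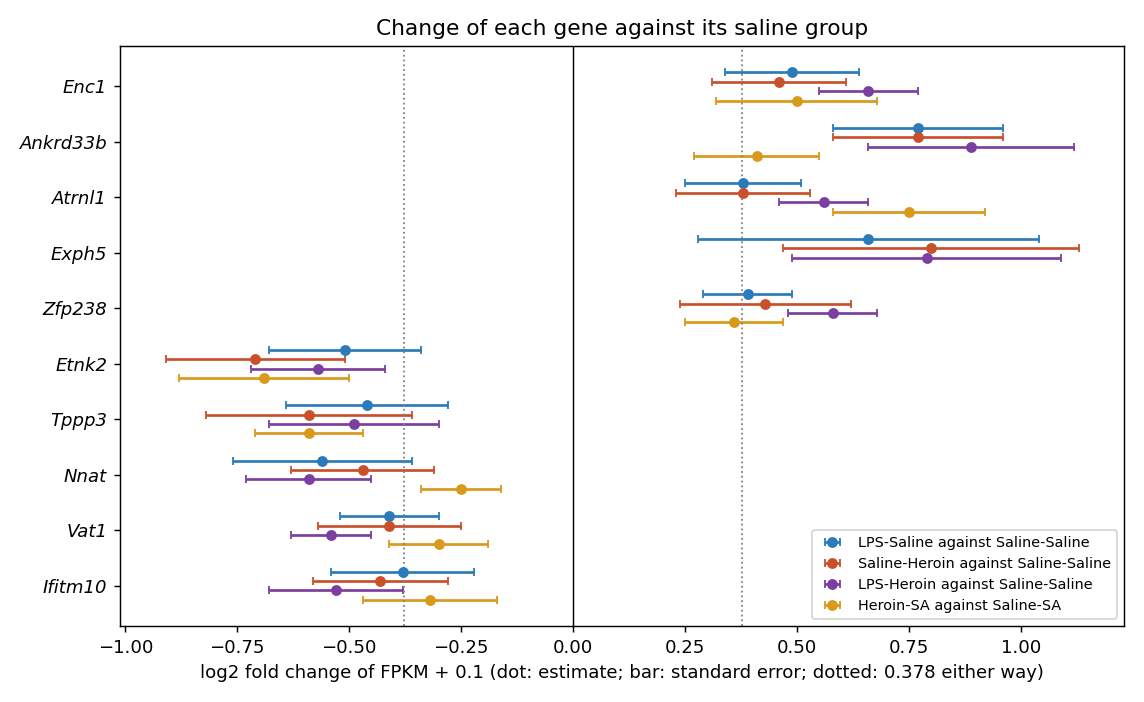
Log2 fold change of FPKM + 0.1 (horizontal axis) of each gene (vertical axis) in the 3 injection comparisons with Saline-Saline and in Heroin-SA against Saline-SA; dots are limma estimates, bars are standard errors, and dotted lines mark the size threshold. Each gene keeps its side of 0 in all comparisons shown, and Exph5 has no self-administration point because it fell under the expression filter.

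The question that follows for a list shared by 3 comparisons is how far it rests on the 4 libraries they share. Leaving out Saline-Saline replicate 1 lowered the number of members called in all 3 comparisons from 9 to 4, which were Enc1, Ankrd33b, Etnk2 and Nnat. Leaving out replicate 2 left the same 4 genes, with 6 members called after LPS, 4 after heroin and 9 after both. Without replicate 3 it was 6 genes, and without replicate 4 it was 7. By comparison, the count without Saline-Saline replicate 1 was 4 after LPS, 4 after heroin and 8 after both, and over all genes the number called in all 3 comparisons was 34 in place of 50. Without replicate 2, 3 or 4 that number was 57, 71 and 73, so that the count of members fell while the count over all genes rose. The members had been chosen for passing with every library in place, so their count could hardly rise. Nothing is read from this contrast. No fold change of any of the 10 genes changed sign in these 3 comparisons under any library left out. For genes chosen by their change in the same comparisons, this was largely fixed beforehand.

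The treated libraries mattered as well. Without Saline-Heroin replicate 3 the members called after heroin numbered 3, and 3 were then called in all 3 comparisons, while over all genes 381 in place of 465 were called after heroin and 31 in place of 50 in all 3. Without LPS-Saline replicate 1, or replicate 4, 4 members were called after LPS and in all 3 comparisons, where the counts over all genes were 43 and 35 in all 3. Without Saline-Heroin replicate 1, or replicate 4, the count after heroin was 5, and over all genes 30 and 51 were called in all 3. Without replicate 4 the calls after heroin over all genes rose to 599. LPS-Saline replicate 3 and Saline-Heroin replicate 2 were also left out together, a setting added after seeing the data. This gave 9 members after LPS, 10 after heroin and 9 in all 3 comparisons, where Exph5 entered and Ifitm10 dropped out. The number of all genes called in all 3 then rose from 50 to 170. Without Saline-Heroin replicate 2 alone the log2 fold changes after heroin were 0.58 for Enc1, 0.85 for Ankrd33b, 0.53 for Atrnl1, 0.96 for Exph5 and 0.61 for Zfp238, and -0.87 for Etnk2, -0.77 for Tppp3, -0.61 for Nnat, -0.58 for Vat1 and -0.54 for Ifitm10. Each was farther from 0 than with all 4 libraries. This had to follow, since replicate 2 was the Saline-Heroin library least shifted in the direction of change for every member. Without LPS-Saline replicate 3, Exph5 passed after LPS, at 0.93.

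**Figure D3:**
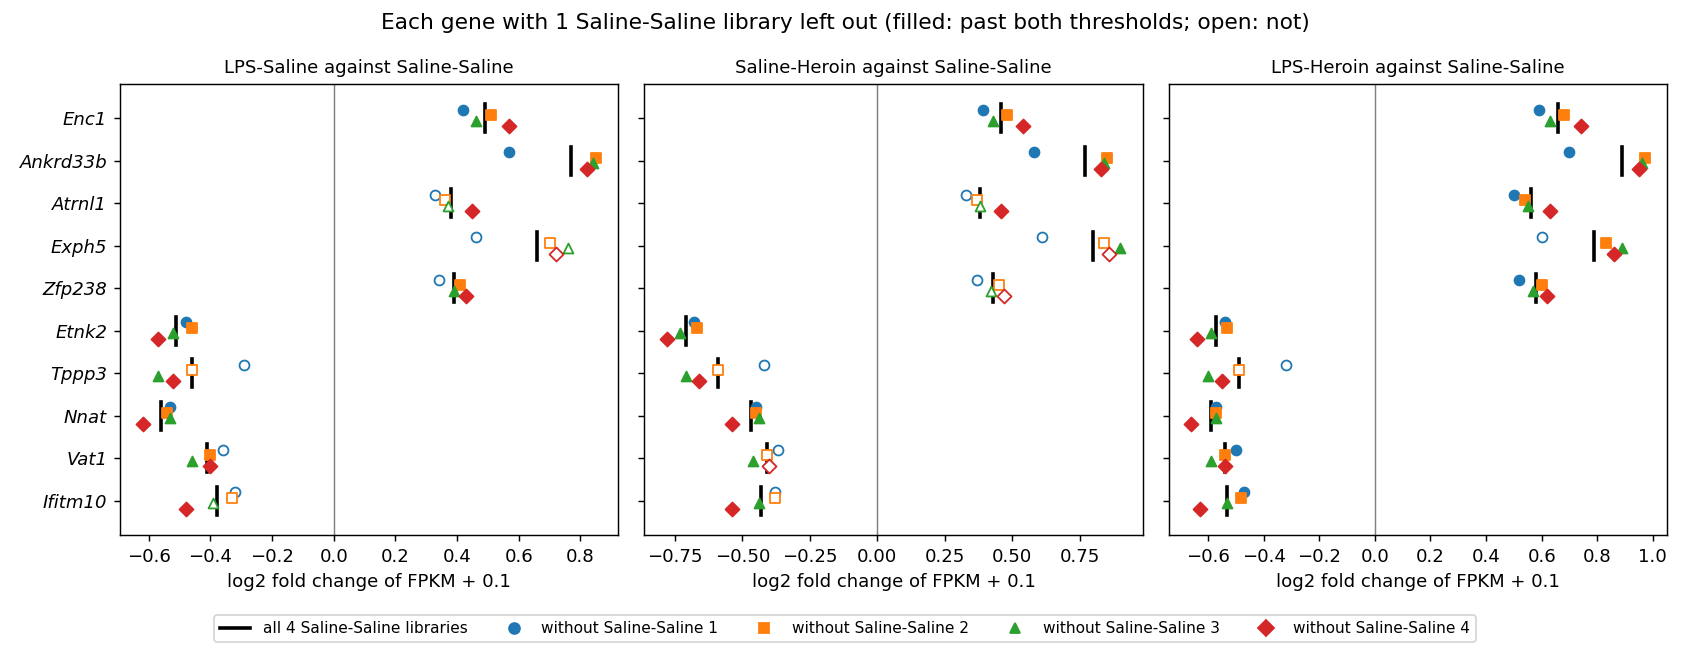
Log2 fold change of FPKM + 0.1 (horizontal axis) of each gene (vertical axis) in the 3 injection comparisons, with all 4 Saline-Saline libraries (black line) and with 1 of them left out (symbols; filled where the gene still passed both thresholds, open where it did not). In the first panel, leaving out replicate 1 moved Ankrd33b from 0.77 to 0.57, Exph5 from 0.66 to 0.46 and Tppp3 from -0.46 to -0.29.

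LPS-Heroin was also compared with LPS-Saline, which describes heroin after LPS, and with Saline-Heroin, which describes LPS before heroin. No member passed the thresholds in these comparisons. Each of these groups had entered the choice of the genes, which favours like values in them. The counts and intervals are therefore a description, and nothing is read from them about what either treatment adds. Against LPS-Saline, where 2.29% of 15069 genes were called, the log2 differences ran from -0.15 for Ifitm10 to 0.18 for Atrnl1 and Zfp238. The 95% interval for Enc1 was -0.15 to 0.49 and that for Nnat was -0.54 to 0.47. Against Saline-Heroin, where 2.20% of 15121 genes were called, the differences ran from -0.13 for Vat1 to 0.20 for Enc1, whose interval was -0.13 to 0.54, and Exph5 differed by -0.01 with an interval of -0.60 to 0.59. The groups overlapped for all 10 genes in both comparisons. The median absolute log2 difference over the 10 genes was 0.14 and 0.13 in these 2 comparisons, against 0.10 and 0.09 over all genes tested.

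In Heroin-SA against Saline-SA, a comparison that shares no library with the others, 9 of the 10 genes passed the expression filter and 5 passed the thresholds, against 5.45% of 15024 genes. Enc1, Ankrd33b and Atrnl1 were higher and Etnk2 and Tppp3 lower, all 5 from the list that had been chosen with this comparison in view. Ankrd33b, Atrnl1, Etnk2 and Tppp3 had groups that did not overlap, against 6.80% of all genes. Without Saline-SA replicate 4 the count of 5 fell to 3, since Enc1 and Ankrd33b no longer passed. Over all genes the calls fell from 819 to 645. The 4 genes that were chosen on the injection experiment alone could be tested here. They are absent from the study's list of genes shared with self-administration, so the split of the 10 genes was not blind to this comparison. Zfp238 was at 26.9, 24.6, 19.7 and 21.8 FPKM in Saline-SA and at 29.6, 31.1, 26.8 and 31.5 FPKM in Heroin-SA, a log2 difference of 0.36 ± 0.11 (SE), in the direction of the injections. Vat1 was at 30.4, 36.9, 39.9 and 41.8 FPKM against 26.8, 32.6, 30.2 and 30.7 FPKM (-0.30 ± 0.11). Nnat was at 541, 496, 584 and 624 FPKM against 467, 511, 472 and 438 FPKM (-0.25 ± 0.09). Ifitm10 was at 18.7, 20.6, 20.3 and 25.9 FPKM against 18.1, 12.5, 19.6 and 18.4 FPKM (-0.32 ± 0.15). All 4 differences had the sign of the injection comparisons, none was as large as the size threshold, and the groups overlapped by 1 or more libraries in each.

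None of these 4 met the thresholds, since none reached the size limit, and none was under 0.05 by exact permutation or after adjustment. Their absence from the study's shared list made such an outcome likely beforehand, so nothing is read from the missing calls. The two-sided exact permutation p, which cannot be below 0.0286 with 4 libraries against 4, was 0.0571 for Zfp238, Nnat and Ifitm10 and 0.0857 for Vat1. The limma p adjusted over all 15024 genes was 0.344 for Zfp238, 0.369 for Vat1, 0.376 for Nnat and 0.464 for Ifitm10. The 95% intervals were 0.12 to 0.60 for Zfp238, -0.54 to -0.06 for Vat1, -0.45 to -0.04 for Nnat and -0.67 to 0.03 for Ifitm10, so that the unadjusted intervals of the first 3 genes did not include 0. With 1 library left out at a time the difference of Ifitm10 ran from -0.40 to -0.18, the latter without Heroin-SA replicate 2.

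The saline groups of both experiments were also compared. Saline-SA and Saline-Saline differ in experiment, housing, surgery and handling, which cannot be told apart, and 22.8% of 15150 genes passed the thresholds between them. Atrnl1 was lower in Saline-SA, with means of 4.04 ± 0.810 against 8.32 ± 0.967 FPKM (SD, n = 4), and so was Etnk2, with 2.79 ± 0.314 against 3.81 ± 0.388 FPKM. For both, the saline groups did not overlap, and the share of all genes without overlap was not computed here. These were 2 of the 9 members tested, near the share over all genes, and nothing is read from that count. The other 7 members tested did not pass, and Nnat had means of 561 and 559.8 FPKM. On the log2 scale the Saline-SA mean lay nearer to Saline-Saline than to the 12 treated injection libraries for 8 members, and nearer to the treated libraries for Etnk2 and Tppp3. For 6 of the 8 it lay beyond Saline-Saline, on the side away from the treated libraries, so that being nearer does not mean being alike. Atrnl1 was at 2.03 in Saline-SA, 3.07 in Saline-Saline and 3.51 in the treated libraries.

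Within groups, the 10 genes varied together in the injection experiment. Each library's deviation from its group mean was correlated between genes over the 16 injection libraries, and all 45 pairs had the sign of their shared or opposite direction of change, with a median r of 0.66 for pairs of the same direction and -0.67 for pairs of opposite direction. The median absolute r was 0.67, against 0.24 for the 10 genes with all genes. These are correlations over libraries that share depth, dissection and RNA preparation, and they are given as a description. Without Saline-Saline replicate 1 all 45 pairs kept these signs (median absolute r 0.64). Over the 12 treated libraries the value was 0.63 with 45 pairs, and it was 0.39 with 38 of 45 pairs over the 10 left after removing LPS-Saline replicate 3 and Saline-Heroin replicate 2, against 0.29 for all genes. In the 8 self-administration libraries 25 of 45 pairs had these signs, with a median absolute r of 0.39 against 0.35 for all genes.

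**Figure D4:**
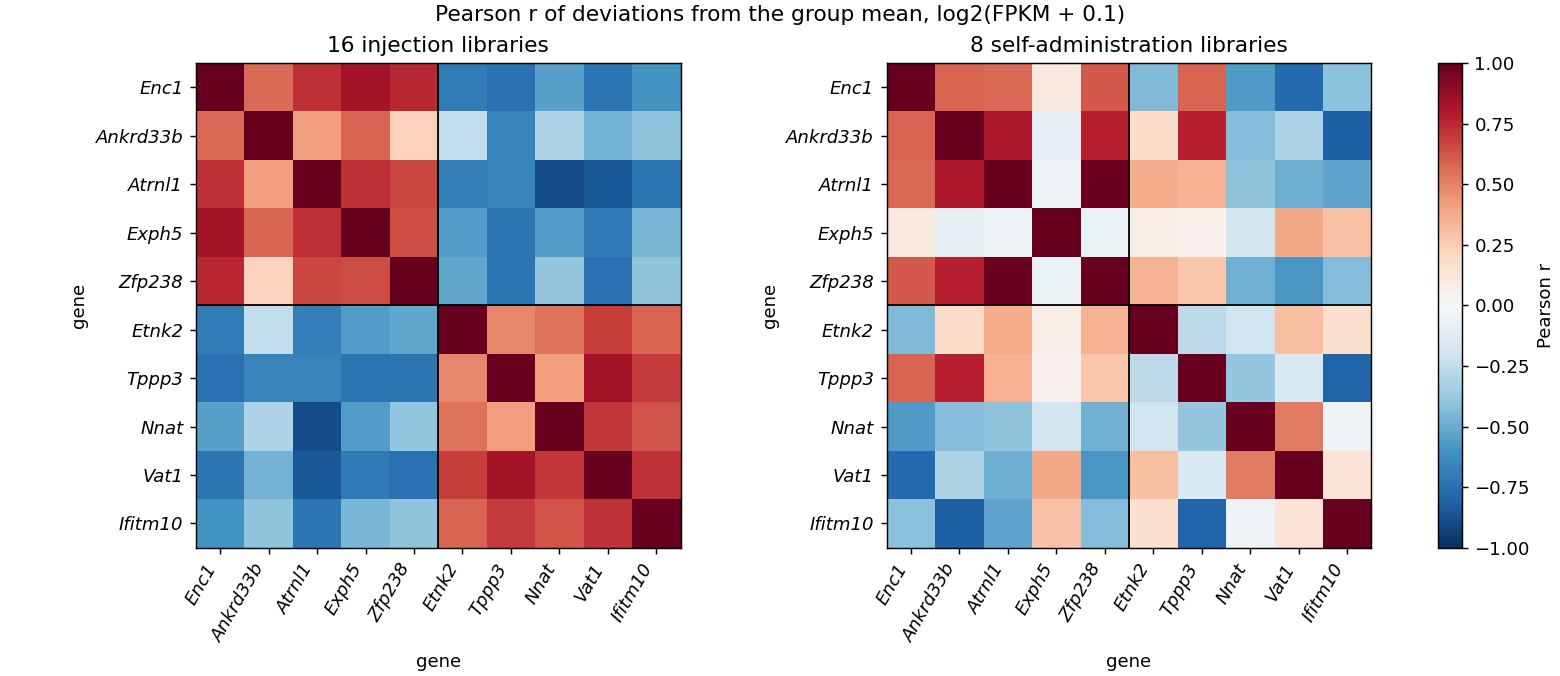
Pearson r between genes (both axes) of deviations from the group mean of log2(FPKM + 0.1), over 16 injection libraries (left) and 8 self-administration libraries (right), with red for positive and blue for negative values and lines between the 5 higher and the 5 lower genes. The left panel holds 2 positive blocks and 2 negative ones; in the right panel 25 of 45 pairs have the matching sign.

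For each member the genes whose deviations followed it most closely over all 24 libraries were sought among the 9093 or 9094 other genes with a mean of at least 5 FPKM. Enc1 went with Pgm2l1 (r = 0.87), Ankrd33b with Sept11 and Rasgrp1 (0.81 and 0.80), Atrnl1 with Kcnf1 and Lancl1 (0.82 and 0.79), Exph5 with Kcnh3 and Cyb561d1 (0.80 and 0.79), and Zfp238 with Fam212b and Synpo (0.85 and 0.84). Among the lower genes, Vat1 went with the imprinted gene Peg3 and with Ift52 (0.84 and 0.83), Nnat with Prmt2 and Itih3 (0.85 and 0.84), Etnk2 with Usp47 and Cmtr1 (0.81 and 0.79), Tppp3 with Dtd2 and Tram1l1 (0.74 and 0.72), and Ifitm10 with Spsb1 and Cdh20 (0.73 for both). None of the 10 genes was among the closest 2 of another. Etnk2 and Exph5, with means of 2.65 and 0.742 FPKM, were under the limit of the search and could not have been found. The r of Nnat with Prmt2 was 0.89 in the injection libraries and 0.01 in the self-administration libraries, whereas that of Enc1 with Pgm2l1 was 0.80 and 0.96.

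Genes related to the members by family or pathway mostly did not pass the thresholds. Of 13 other kelch genes tested with Enc1, none passed after LPS or heroin and Klhl1 was lower after both (0.608 ± 0.262 against 1.94 ± 0.415 FPKM, SD, n = 4; log2 fold change -1.58). In self-administration Klhl24 (0.42) and Klhl4 (0.49) were higher, of 12 tested. Around Atrnl1, the melanocortin precursor gene Pomc was the 1 gene that passed, of 6, 5 and 5 tested in the injection comparisons, with means of 1.50 FPKM after LPS, 1.46 after heroin and 1.60 after both against 2.26 FPKM in Saline-Saline. Of 13 genes of ethanolamine and choline phospholipid synthesis around Etnk2, none passed after LPS, after heroin or in self-administration, and Chpt1, which makes phosphatidylcholine, was lower after both (-0.39 ± 0.14, SE). Of the Rab27 genes around Exph5, the motor gene Myo5a was higher after LPS (0.39) and in self-administration (0.47), and Sytl2 was lower after heroin (-2.08 ± 0.86), against a Saline-Saline group of 2.90 ± 4.55 FPKM. Tppp, the paralog of Tppp3, was the 1 gene of 13 tubulin genes that passed, in the self-administration comparison, where it was higher (0.54) while Tppp3 was lower.

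Of 15 imprinted genes tested with Nnat, 5 were lower after LPS and heroin together and none higher: Peg3 (-0.57 ± 0.09), Grb10 (-0.58 ± 0.18), Dlk1 (-1.27 ± 0.32), Magel2 (-1.39 ± 0.32) and Zim1 (-1.56 ± 0.40). After LPS alone Magel2 was lower (-0.83) and Mest higher (0.39), and none passed after heroin or in self-administration. The list's median log2 fold change was -0.18, -0.20, -0.29 and -0.12 in the 4 saline comparisons, where the medians over all genes were 0.007, 0.002, 0.001 and 0.009. Around Zfp238, Id2 (0.39) and Zbtb46 (0.60) were higher after both treatments and Id3 lower in self-administration (-0.48), of 11 tested. Of the 4 other Ifitm genes tested, Ifitm2 was higher after heroin (0.80), opposite to Ifitm10. Vat1l, the paralog of Vat1, was lower after both (-0.55 ± 0.14). None of these genes had an adjusted p under 0.05 in limma, and the lowest was that of Peg3, 0.144.

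Several marker lists moved with the 10 genes. These lists were chosen with earlier results of these data known, so their values are given as a description only. Genes marking septum and ventral forebrain, regions that border the NAc, had a mean log2 level over 12 of 12 genes of 3.33 ± 0.34 (SD, n = 4) in Saline-Saline. It was 2.75 ± 0.26 after LPS, 2.94 ± 0.58 after heroin and 2.52 ± 0.34 after both, and 2.78 ± 0.24 in Saline-SA against 2.33 ± 0.13 in Heroin-SA. Their summed level ran over 182 to 315 FPKM in Saline-Saline, 119 to 214 after LPS, 132 to 312 after heroin, 93.7 to 153 after both, 122 to 159 in Saline-SA and 88.3 to 129.5 in Heroin-SA, and no gene of the list was at 0. All 12 genes had a negative log2 fold change in each of these 4 comparisons, and 6, 1, 7 and 3 of them passed the thresholds. Because of how the list was chosen, nothing is read from these counts. Dlk1 is in this list and among the imprinted genes. For these lists libraries were left out after seeing the data. Without Saline-Saline replicate 1 the saline mean was 3.17 ± 0.15 (n = 3), and 0 of the 12 passed after LPS, 1 after heroin and 6 after both. Without Saline-Heroin replicate 2 the heroin mean was 2.65 ± 0.06 and 5 passed. Within groups over 24 libraries, this list's level had r from -0.68 to -0.53 with the 5 higher genes and from 0.48 to 0.82 with the 5 lower ones, a median absolute r of 0.59 against 0.20 for all genes. In the 16 injection libraries r was -0.79 to -0.62 and 0.55 to 0.83, whereas in the 8 self-administration libraries Exph5 (0.35) and Tppp3 (-0.34) had the opposite sign and Atrnl1 was at -0.12. Saline-Heroin replicate 2 and Saline-Saline replicate 1, both at 3.81, had the highest levels of the 24 libraries, and LPS-Saline replicate 3, at 3.08, was the highest of its group. The part of these genes in the members' differences was not tested.

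Markers of cortical glutamatergic neurons moved the other way. Their mean log2 level over 11 of 12 genes was 2.63 ± 0.49 in Saline-Saline, 2.93 ± 0.61 after LPS, 3.01 ± 0.49 after heroin and 3.32 ± 0.10 after both, with sums of 121 to 325, 141 to 436, 192 to 503 and 417 to 496 FPKM. In LPS-Heroin 7 of the 11 passed as higher, among them Slc17a7, the vesicular glutamate transporter of cortex (333 ± 39.6 against 158 ± 79.0 FPKM), and Slc17a6 passed as lower. Their r with the higher genes was 0.16 to 0.68 and with the lower genes -0.48 to -0.18, although in self-administration Tppp3 (0.10) and Nnat (0.16) had the opposite sign. After LPS and after heroin alone none of the 11 passed, but 3 were higher after LPS without LPS-Saline replicate 3, and 4 were higher and 1 lower after heroin without Saline-Heroin replicate 2. In self-administration the list was at 2.39 ± 0.60 and 2.65 ± 0.87, with sums of 75.7 to 287 and 65.8 to 452 FPKM, and none of the 11 passed. Their part was not tested either.

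Immediate early genes, which are switched on by recent neuronal activity, followed the members within groups, while their group means were ordered differently. Over 9 of 10 genes, r was 0.49 to 0.62 with the higher members and -0.66 to -0.50 with the lower members, although in self-administration alone Tppp3 (0.50) and Nnat (0.21) had the opposite sign, whereas the group means were 4.67 ± 0.40 in Saline-Saline, 5.07 ± 0.17 after LPS, 3.84 ± 0.44 after heroin and 4.32 ± 0.69 after both. After heroin 7 of the 9 passed as lower, Fos at 15.2 ± 3.26 against 29.5 ± 7.11 FPKM and Egr1 at 54.9 ± 13.4 against 82.0 ± 13.8 FPKM, while after LPS all 9 had a positive log2 fold change and none passed, or 3 as higher without LPS-Saline replicate 3. The mean after both rested in part on LPS-Heroin replicate 1, at 5.31, where replicates 2, 3 and 4 were at 4.22, 3.73 and 4.01. After both, 1 of the 9 had a positive log2 fold change, Dusp1 (0.39), which passed as higher, and none passed as lower. In self-administration the list was at 4.22 ± 0.12 (4.11 to 4.34) in Saline-SA and 3.69 ± 0.33 (3.23 to 4.01) in Heroin-SA, with no overlap. There 6 of the 9 passed as lower, namely Junb, Arc, Nr4a1, Fos, Fosb and Egr2. The members had the same direction in each of these comparisons, and the part of these genes was not tested.

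**Figure D5:**
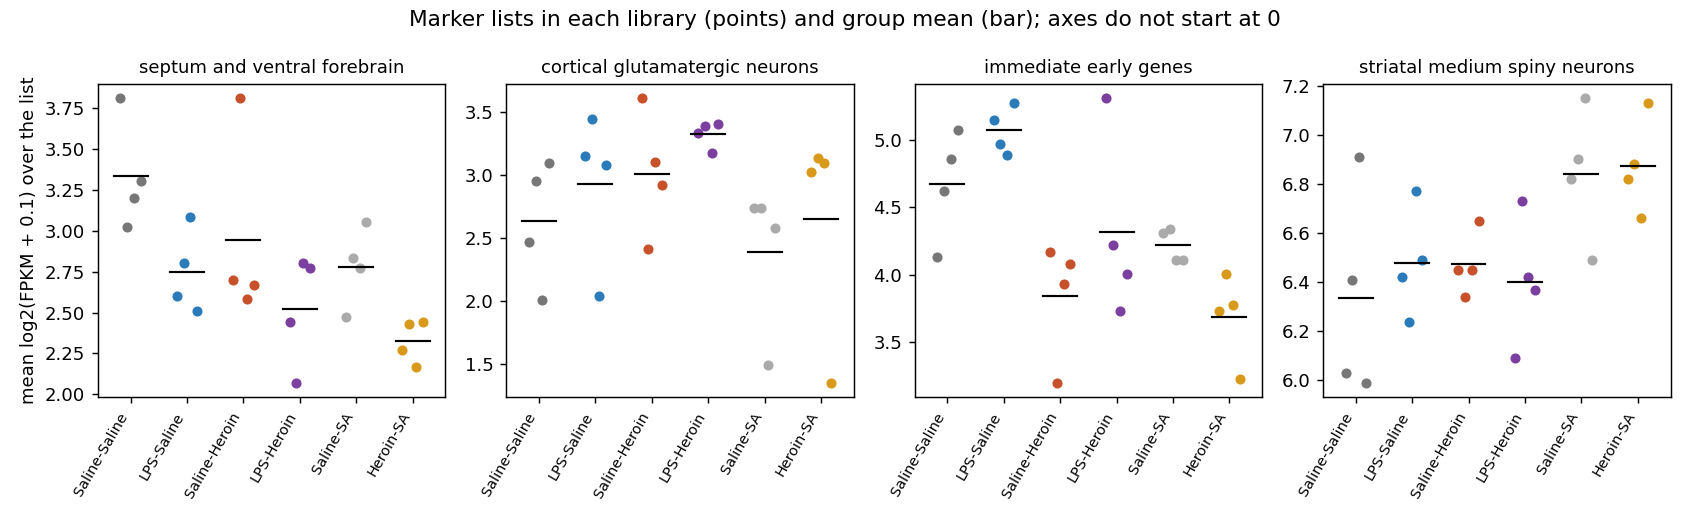
Mean log2(FPKM + 0.1) over the genes of 4 marker lists (vertical axes, not from 0) in each library (points) of the 6 groups (horizontal axis), with the group mean as a bar. The septum and ventral forebrain list is lower in each treated group mean than in its saline group, and Saline-Heroin replicate 2 stands at the Saline-Saline replicate 1 level of 3.81.

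The remaining marker lists had lower correlations with the members. Medium spiny neuron markers, at 6.33 to 6.48 in the group means of the injection experiment and 6.84 and 6.87 in self-administration, had a median absolute r of 0.11 with the members, against 0.22 for all genes, and none of 12 passed in any of the 4 comparisons. Choroid plexus genes reached a sum of 335 FPKM in Saline-Saline replicate 1, where the other 23 libraries held between 0.903 and 32.6 FPKM. Their mean log2 level, over 3 of 9 genes, had a median absolute r of 0.23, against 0.18 for all genes. Ependyma and motile cilia genes were also highest in Saline-Saline replicate 1, at a sum of 81.0 FPKM, with Saline-SA replicate 1 next at 50.2 FPKM. For ependyma, astrocytes, oligodendrocytes, microglia and endothelium the median absolute r was 0.12, 0.23, 0.17, 0.18 and 0.13, against 0.17 to 0.23 for all genes, and for inflammatory and interferon-stimulated genes it was 0.11 and 0.07. Of 10 inflammatory genes only 3 were abundant enough to be tested after LPS, 4 after heroin, 3 after both and 4 in self-administration, and none of those passed, while 1 was higher after both without Saline-Saline replicate 1. Of the interferon-stimulated genes, 11 were tested after LPS, 11 after heroin, 10 after both and 11 in self-administration. Irf7 (-0.77) and Bst2 (-0.83) were lower after LPS and Irf7 (-0.80) after heroin, none passed after both, and Bst2 was higher in Heroin-SA (8.28 ± 2.22 against 4.05 ± 1.68 FPKM, SD; log2 fold change 1.06). The call of Irf7 after heroin was lost without Saline-Saline replicate 1, and without Saline-Heroin replicate 2.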

How the data were processed

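Strand-specific poly-A libraries were sequenced in pairs from NAc RNA of 24 rats. The submitters' processing notes name fastp, HISAT2 and featureCounts and the rn6 genome, with no versions. The deposited values are FPKM per gene, made by the authors from gene counts, and each FPKM times gene length was a whole multiple of 1 read (100% of values, tolerance 0.01 reads), which gave library depth. Here, log2(FPKM + 0.1) was compared between groups of 4 with limma 3.58.1 (trend option, R 4.3.3) for genes with a mean of at least 0.5 FPKM in the libraries compared, and p-values were adjusted by the Benjamini-Hochberg method over all genes tested. The pseudocount shrinks the change of low genes, Exph5 most. The script was tested on simulated data. A gene was called at an unadjusted p of at most 0.05 and a change of at least about 1.3-fold. Members and lists were chosen with earlier results of these data known. The named genes were the 10 members, for each the 2 genes with the highest within-group r, and related or marker genes that passed the thresholds, of which some are shown; 1 of these genes is not reported here. Replicates are separate rats. Replicate numbers did not pair libraries (same-number correlations -0.15 to 0.15).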

Additional observations from a re-analysis of the deposited data

Results flagged for a closer look

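In the 60 member-by-group sets of 4 libraries, 3 held a library far from the other 3 (by Dixon's criterion on the gap to the nearest library), where chance alone gives about 1 in 20. Ankrd33b in Saline-Saline replicate 1 was lowest, at 2.78 FPKM with the next library at 4.76. Nnat in Saline-Saline replicate 4 was lowest, at 485 FPKM with the next at 579.8. Vat1 in Saline-Heroin replicate 2 was highest, at 42.6 FPKM with the next at 27.2.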

How the results depend on the processing

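With 4 libraries in each group, the members' log2 fold changes were stable in sign and the counts of calls were not. All 497 values recomputed for the 3 injection comparisons kept their sign. The genes had been chosen for their change in these comparisons, so this was largely fixed by the choice. At an adjusted p under 0.05, 0 members passed after LPS, after heroin, after both, in all 3 and in self-administration. Leaving out 1 library at a time gave 4 to 9 members after LPS, 3 to 10 after heroin, 8 to 10 after both, 3 to 9 in all 3, 3 to 7 in self-administration (3 without Saline-SA replicate 4), 0 in both comparisons with LPS-Heroin against a single treatment, and 2 in Saline-SA against Saline-Saline. Without a limit on fold change 8 members passed in self-administration, where 1725 of all genes did, in place of 819. Between the saline groups 1 member passed with a pseudocount of 1, and 1 with quantile normalization, where 3118 and 3537 of all genes passed. With a pseudocount of 1, Exph5 had a log2 fold change of 0.38 after heroin and 0.37 after both. Over all genes, the calls with 1 library left out ranged from 310 to 625 after LPS, 366 to 727 after heroin and 664 to 988 after both. They ranged from 30 to 86 in all 3 and from 645 to 1211 in self-administration. In LPS-Heroin against LPS-Saline they ranged from 295 to 428, and against Saline-Heroin from 301 to 446. Between the saline groups they ranged from 3132 to 3615. Without a filter on low values there were 582 after LPS, 548 in LPS-Heroin against LPS-Saline and 524 in LPS-Heroin against Saline-Heroin. Without a fold limit there were 1002 after LPS. The cause was not tested. The fit with the replicate number as a block called 9, 8, 8 and 5 members after LPS, heroin, both and in self-administration, and 7 in all 3. Fits of limma-voom to the recovered reads, added after seeing the data, called 8, 9, 10 and 5 members and 8 in all 3, Exph5 among them. Over all genes the block fit called 481, 440, 901 and 758, with 49 in all 3. The limma-voom fits called 366, 501, 879 and 812 of all genes, with 57 in all 3. The planned count models, edgeR and DESeq2, were not run. The deposited unit is FPKM, and limma-voom on the recovered reads was run in their place. Of the 4 genes tested in self-administration, Zfp238 passed without Saline-SA replicate 1, Saline-SA replicate 2 or Heroin-SA replicate 3, Vat1 without Saline-SA replicate 1 and Ifitm10 without Heroin-SA replicate 3.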
